A study of Homo sapiens with 9 samples.

Results

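The 6 genes described here, CX3CL1, CCL5, CCL3, CCL20, CXCL2 and CXCL14, encode chemokines other than the 3 ligands of the receptor CXCR3. They are 6 of the 927 named genes on the arrays, and 7 of 1259 probe sets read them, matched through the RefSeq identifier of each probe set. The genes were chosen by differences between groups seen in an earlier analysis of these same 9 arrays, so their values below are a description and carry no test. The arrays, 3 per group, held T84 cells given 100 U/ml interferon gamma for 24 hours, untreated T84 cells and untreated Caco-2 cells. T84 and Caco-2 are human epithelial lines derived from colon carcinomas. Untreated T84 cells were at passage 68 and untreated Caco-2 cells at passage 37, both at about 90% confluence in 6-well plates, while the sources used here do not give the passage and confluence of the treated cells. Each group is 1 line in culture, and the labels do not say whether replicates came from separate cultures, so p-values reflect nothing beyond the spread among these samples, which could be technical. The study set treated T84 cells against both untreated lines to look for glycosylation genes behind a sialylated form of the adhesion molecule CD44v6, and the arrays also carried chemokine genes.

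Chemokines are small secreted proteins that bind G protein-coupled receptors on leukocytes and direct their migration. Intestinal epithelial cells make several of them and thereby set which leukocytes gather beneath the epithelium. Interferon gamma, released by activated T cells and natural killer cells, acts through JAK kinases and gamma-activated sites in promoters, while NF-kappaB drives many inflammatory chemokine genes.

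All values are log2 signals made by the authors with RMA, which corrects background, normalises between arrays and summarises probes. Array medians lay between 6.70 and 6.80 and lower quartiles between 5.26 and 5.38. A signal below the lower quartile of its array is called dim here, since no measure of background was used. Arrays of 1 group correlated at 0.987 to 0.999 over all probe sets, which share each array and are no replicates. Treated T84 replicate 3, untreated T84 replicate 3 and Caco-2 replicate 1 deviated from their group means together (pairwise correlations of 0.561, 0.484 and 0.756 over probe sets), and, for the differences described below, calls lost without these 3 arrays and values of the 6 genes that moved by over 1 SD without them are given with and without them. Of 13 intestinal epithelial markers only LGALS4 and MUC13 were measured. LGALS4, a galectin, had a log2 signal of 12.47 ± 0.03 in treated cells, 13.01 ± 0.03 in untreated T84 and 6.91 ± 0.08 in Caco-2 cells (SD, n = 3 each). MUC13, a transmembrane mucin, had one of 12.38 ± 0.09 in treated cells, 11.98 ± 0.075 in untreated T84 and 9.92 ± 0.12 in Caco-2 cells, and both lay above the median of every array. Of 24 leukocyte markers 12 were measured, and 10 of these lay below the array median on all arrays of each group. Their summed linear signal was 784 to 809 in treated T84, 733 to 783 in untreated T84 and 757 to 767 in Caco-2 cells. In limma 0 of the 12 passed between treated and untreated T84, and 1 had an unadjusted p below 0.05. Against Caco-2, CD22 and CLEC4A were called higher and NCAM1 lower in both treated and untreated T84. Of 16 fibroblast and endothelial markers 6 were measured, with 0 called between treated and untreated T84. Against Caco-2, 3 of these 6 were called lower in each. Of all probe sets, 19.4% were called higher and 26.2% lower in treated T84 against Caco-2, and 19.5 and 24.2% in untreated T84. The markers PTPRC, CD3E, CD14 and CD68 are not analysed here.

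Within T84 cells, 4 of the 6 genes were higher with interferon gamma (CX3CL1, CCL5, CCL3 and CXCL2), CCL20 was lower, and CXCL14 did not differ beyond the spread between arrays. These 5 genes passed an adjusted p of 0.05 in the linear model (limma, Benjamini-Hochberg over 1259 probe sets), beside 4.37% of all probe sets called higher and 5.8% called lower. Their groups also did not overlap, as at 9.61% of all probe sets in the higher and 17.9% in the lower direction. Because these contrasts chose the genes, nothing is read from those shares. Against Caco-2, 5 genes were higher and CXCL14 lower in treated T84, all past the threshold, beside 19.4% of all probe sets called higher and 26.2% called lower. The same 5 and 1 had groups that did not overlap, as at 24.8 and 28.8% of probe sets. In untreated T84 against Caco-2, 4 genes were called higher and 1 lower, beside 19.5 and 24.2% of all probe sets. There the brighter CXCL2 probe set, which stood for the gene in this count, was not called, whereas its other probe set was called higher. Groups did not overlap for 5 genes in the higher and 1 in the lower direction, as at 23.7 and 25.8% of probe sets. The 3 comparisons share their groups, so they are not independent of each other.

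**Figure D1:**
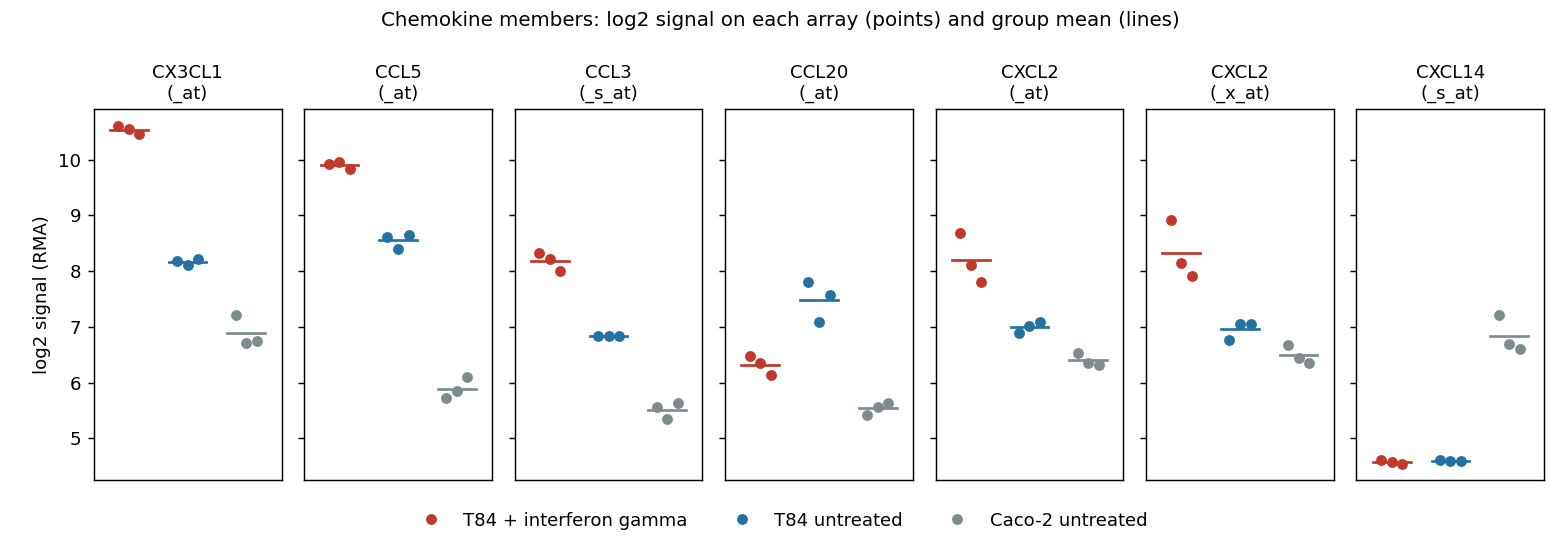
Log2 signal (vertical axis) of the 7 probe sets on each of the 9 arrays, with treated T84, untreated T84 and Caco-2 cells from left to right in each panel; points are arrays and lines are group means. CX3CL1, CCL5, CCL3 and CXCL2 are highest in treated T84 and lowest in Caco-2, CCL20 is highest in untreated T84, and CXCL14 reaches at most 4.62 on the T84 arrays and at least 6.61 on the Caco-2 arrays.

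CX3CL1 encodes fractalkine, a chemokine held at the cell surface on a mucin-like stalk that can be shed, and its receptor CX3CR1 sits on monocytes, intestinal macrophages and natural killer cells. Its log2 signals were 10.60, 10.55 and 10.46 in treated cells, 8.18, 8.11 and 8.22 in untreated T84, and 7.21, 6.71 and 6.75 in Caco-2 cells. The lowest treated array lay 2.24 log2 units above the highest untreated T84 array, and the lowest untreated T84 array 0.91 above the highest Caco-2 array. The log2 difference between treated and untreated T84 was 2.37 ± 0.12 (SE), or 5.16-fold, the 8th largest by size of all 1259 probe sets. It lay above 86.6 to 86.7% of probe sets on the treated arrays, against 67.5 to 69.2% on the untreated T84 arrays. Against Caco-2 the differences were 3.65 ± 0.12 in treated T84 and 1.28 ± 0.12 in untreated T84. Caco-2 replicate 1 was the highest of its group, and without the 3 arrays that deviated together the difference of treated T84 from Caco-2 was 3.84.

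CCL5, also known as RANTES, attracts T cells, monocytes and eosinophils through receptors that include CCR3 and CCR1. Its log2 signals were 9.91, 9.96 and 9.83 in treated cells, 8.62, 8.39 and 8.65 in untreated T84, and 5.72, 5.86 and 6.10 in Caco-2 cells. The 3 groups were well apart, and of the 6 genes CCL5 differed most between untreated T84 and Caco-2. The log2 difference was 1.35 ± 0.11 (SE) between treated and untreated T84, or 2.55-fold. It was 4.01 ± 0.11 between treated T84 and Caco-2 (16.1-fold) and 2.66 ± 0.11 between untreated T84 and Caco-2 (6.31-fold).

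CCL3, or MIP-1 alpha, attracts monocytes and other leukocytes through receptors that include CCR1. Its probe set carries the suffix _s_at, which marks probes shared among transcripts, so it may also read the near-identical CCL3L genes. Its log2 signals were 8.33, 8.22 and 7.995 in treated cells, 6.84, 6.83 and 6.83 in untreated T84, and 5.56, 5.35 and 5.64 in Caco-2 cells. The 3 groups did not overlap. Treated and untreated T84 differed by 1.35 ± 0.10 log2 units (SE), or 2.55-fold, and treated and untreated T84 exceeded Caco-2 by 2.66 ± 0.10 and 1.32 ± 0.10. The SD in untreated T84 was only 0.0019, as 2 of the 3 arrays held the same value to all digits given and the other lay 0.0033 above it. Such equal values on at least 2 arrays of the group occurred at 202 probe sets (16%) in untreated T84, against 172 (13.7%) in treated T84 and 106 (8.42%) in Caco-2 cells. The standard errors above come from the spread over all 9 arrays. The Caco-2 signal of CCL3 lay above 24.3 to 29.9% of probe sets, close to the lower quartile.

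CCL20 attracts dendritic cells, B cells and T helper 17 cells through CCR6, and the epithelium over lymphoid follicles makes it. It was the only one of the 6 that was lower with interferon gamma. Its log2 signals were 6.49, 6.36 and 6.13 in treated cells, 7.80, 7.08 and 7.57 in untreated T84, and 5.43, 5.57 and 5.63 in Caco-2 cells. The highest treated array lay 0.59 below the lowest untreated T84 array, and the lowest treated array 0.50 above the highest Caco-2 array. The log2 difference of treated from untreated T84 was -1.16 ± 0.18 (SE), or 0.447-fold. Untreated T84 varied most here, with an SD of 0.37 that exceeded those of 97.1% of probe sets in that group. Leaving out single arrays moved the difference between -1.36 (without untreated T84 replicate 2) and -1.001 (without untreated T84 replicate 1). Against Caco-2 the difference was 0.78 ± 0.18 in treated T84 and 1.94 ± 0.18 in untreated T84, so 40.3% of the log2 difference between the untreated lines was left with treatment.

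CXCL2 attracts neutrophils through CXCR2 and was read by 2 probe sets. One has no suffix for sharing, and the other ends in _x_at, which marks possible cross-hybridisation with related genes. The probe set without the suffix had log2 signals of 8.68, 8.12 and 7.81 in treated cells, 6.88, 7.02 and 7.09 in untreated T84, and 6.54, 6.35 and 6.32 in Caco-2 cells. The _x_at probe set had 8.91, 8.15 and 7.91 in treated cells, 6.77, 7.05 and 7.05 in untreated T84, and 6.67, 6.45 and 6.35 in Caco-2 cells. Both put the groups in the same order with no overlap, and on single arrays they differed by -0.12 to 0.23 log2 units (_x_at minus the other).

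Treated and untreated T84 differed by 1.20 ± 0.19 log2 units (SE) at the first CXCL2 probe set and by 1.37 ± 0.23 at the _x_at probe set, or 2.30- and 2.58-fold. CXCL2 varied more between treated arrays than almost any other gene, with SDs of 0.44 and 0.52 that exceeded those of 98.4 and 99.4% of probe sets in that group. Treated replicate 1 was the highest at both. Without it the differences were 0.96 and 1.07, and without the 3 arrays that deviated together they were 1.45 and 1.62. Treated T84 exceeded Caco-2 by 1.80 ± 0.19 and 1.83 ± 0.23. Untreated T84 exceeded Caco-2 by 0.59 ± 0.19 and 0.47 ± 0.23, and the groups at the _x_at probe set were only 0.10 apart.

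CXCL14 is made constitutively by many epithelia and attracts monocytes and dendritic cell precursors. Its probe set ends in _s_at and so is shared among transcripts. Its log2 signals were 4.62, 4.57 and 4.55 in treated cells, 4.60, 4.60 and 4.59 in untreated T84, and 7.21, 6.70 and 6.61 in Caco-2 cells. T84 arrays lay above only 15.3 to 16.0% of probe sets, which is dim, whereas Caco-2 arrays lay above 46.9 to 56.6%. A change within T84 below the dim range could not be seen, and the log2 difference of treated from untreated T84 was -0.02 ± 0.14 (SE), the 1064th of 1259 by size. Its sign turned (0.12) when arrays were centred on the ribosomal protein genes. Treated T84 differed from Caco-2 by -2.26 ± 0.14 and untreated T84 by -2.24 ± 0.14, or 0.209- and 0.211-fold. Caco-2 replicate 1 was again the highest of its group, and without the 3 arrays that deviated together the first of these differences was -2.06.

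**Figure D2:**
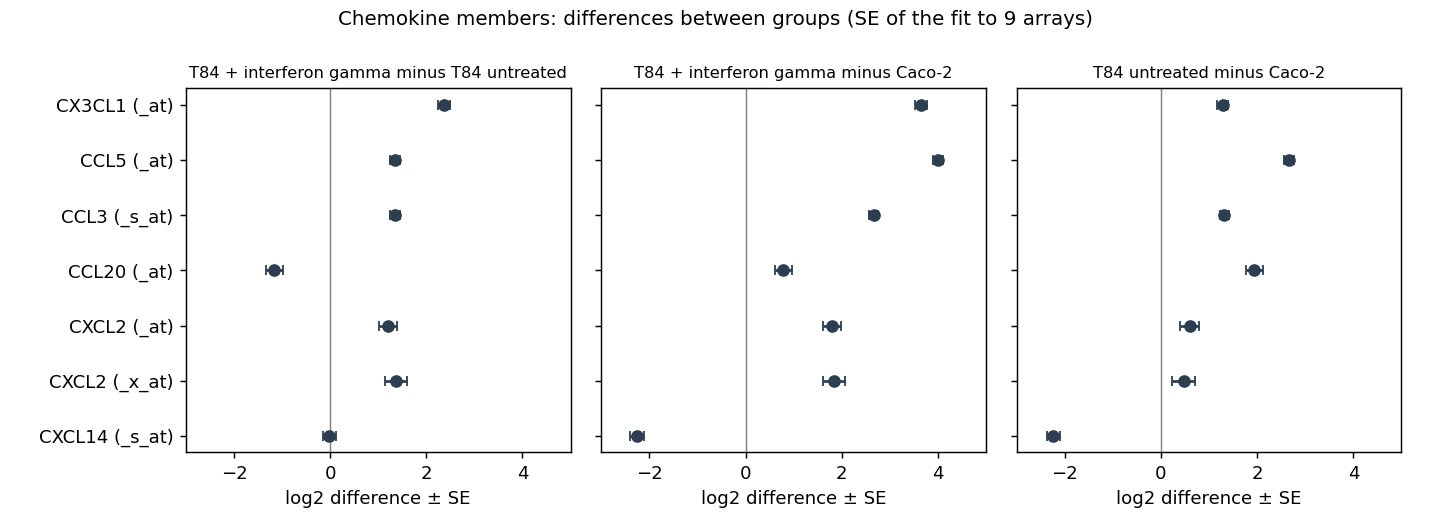
Log2 differences (horizontal axis) with standard errors from the fit to all 9 arrays, for treated against untreated T84 (left), treated T84 against Caco-2 (middle) and untreated T84 against Caco-2 (right). CCL20 alone lies at -1.16 in the left panel while CX3CL1 reaches 2.37, and CXCL14 is near -2.2 in both panels against Caco-2.

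The 6 genes fell into unlike profiles over the 9 arrays. CXCL2 was represented here by its _x_at probe set alone, which may also read related genes. With each gene centred on its own mean, the root mean square difference between 2 profiles was smallest for CCL3 and CXCL2 (0.454 log2 units) and for CX3CL1 and CCL3 (0.491). It was largest for CCL5 and CXCL14 (2.70). Among the 921 other named genes, the profile nearest to CX3CL1 was that of TNFSF13B, the gene of the B cell survival cytokine BAFF (0.517), followed by MUC1 (0.583) and IL2RG (0.608). CCL5 lay nearest to IL2RG, the shared gamma chain of interleukin receptors (0.416), LAMP3 (0.42) and ICAM2 (0.525).

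The nearest profile to CCL3 was that of the transmembrane mucin gene MUC1, at 0.174, followed by CXCL3 (0.31) and ADGRE1 (0.32). CCL20 lay nearest to GNE, which encodes the enzyme that starts sialic acid synthesis (0.21), PAPSS2 (0.22) and SLC35D3 (0.262). CXCL2, by its _x_at probe set, lay nearest to MUC4 (0.284), CXCL1 (0.311) and HPSE (0.354). Cross-hybridisation with a related gene such as CXCL1 could add to that likeness and was not tested. CXCL14 lay nearest to the frizzled receptor gene FZD10 (0.118), IGFBP2 (0.135) and the ribosomal protein gene RPL28 (0.146), all higher in Caco-2. These distances describe likeness over 9 arrays in 3 groups and carry no test.

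Beside the 6, 29 of 39 other chemokine ligand genes were measured, the CXCR3 ligands left out. Of these 29, 10 were dim on all 9 arrays, which limits what could be seen for them. In treated against untreated T84, 4 of the 29 rose, 0 fell and 25 did not pass (5 higher and 0 lower at an unadjusted p below 0.05), with a median log2 difference of 0.01 beside -0.01 over all probe sets. Of all probe sets, 4.37% were called higher and 5.8% lower. The groups did not overlap for 6 of the 29, all higher in treated T84, among them CCL25 and CCL26, which did not pass. The same held for 9.61% of all probe sets in the higher and 17.9% in the lower direction. CXCL3 and CXCL1, neutrophil attractants that bind CXCR2 as CXCL2 does, rose most. CXCL3 had log2 signals of 8.67, 8.23 and 7.87 in treated T84 and 7.36, 7.40 and 7.54 in untreated T84, a difference of 0.82 ± 0.19 (SE; limma adjusted p = 0.0299, n = 3 per group). CXCL1 had 7.97, 7.37 and 7.33 in treated T84 and 6.71, 6.85 and 6.86 in untreated T84, a difference of 0.75 ± 0.15 (limma adjusted p = 0.0168). Treated replicate 1 was the highest treated array for both, as for CXCL2. This was not particular to them, as it held for CX3CL1, CCL3, CCL20, CXCL14, CXCL8 and the CXCR3 ligands too. It did not hold for CCL5, CCL2 and CCL22.

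The other 2 that rose did so by less. CCL22, which attracts T cells through CCR4, had a log2 difference of 0.35 ± 0.09 (SE; limma adjusted p = 0.0402, n = 3 per group), and the monocyte attractant CCL2 one of 0.31 ± 0.05 (limma adjusted p = 0.0037). CCL2 was dim on all 9 arrays, at 4.51 ± 0.01 in treated cells, 4.197 ± 0.03 in untreated T84 and 5.21 ± 0.07 in Caco-2 cells (SD, n = 3 each). Leaving out single arrays gave 1 to 4 ligands called higher, and CXCL3 was lost without treated replicate 1 or 2, any untreated T84 array or Caco-2 replicate 2 (adjusted p from 0.0526 to 0.106). CXCL1 was lost without untreated T84 replicate 1 or 3 (0.0711 and 0.0524), and CCL22 without any T84 array or Caco-2 replicate 2 (0.0574 to 0.139), with a replicate block (0.0851) and without the 3 arrays that deviated together (0.0552). The 3 CXCR3 ligands CXCL9, CXCL10 and CXCL11 were higher by 6.12, 5.11 and 4.04 log2 units in treated than in untreated T84.

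**Figure D3:**
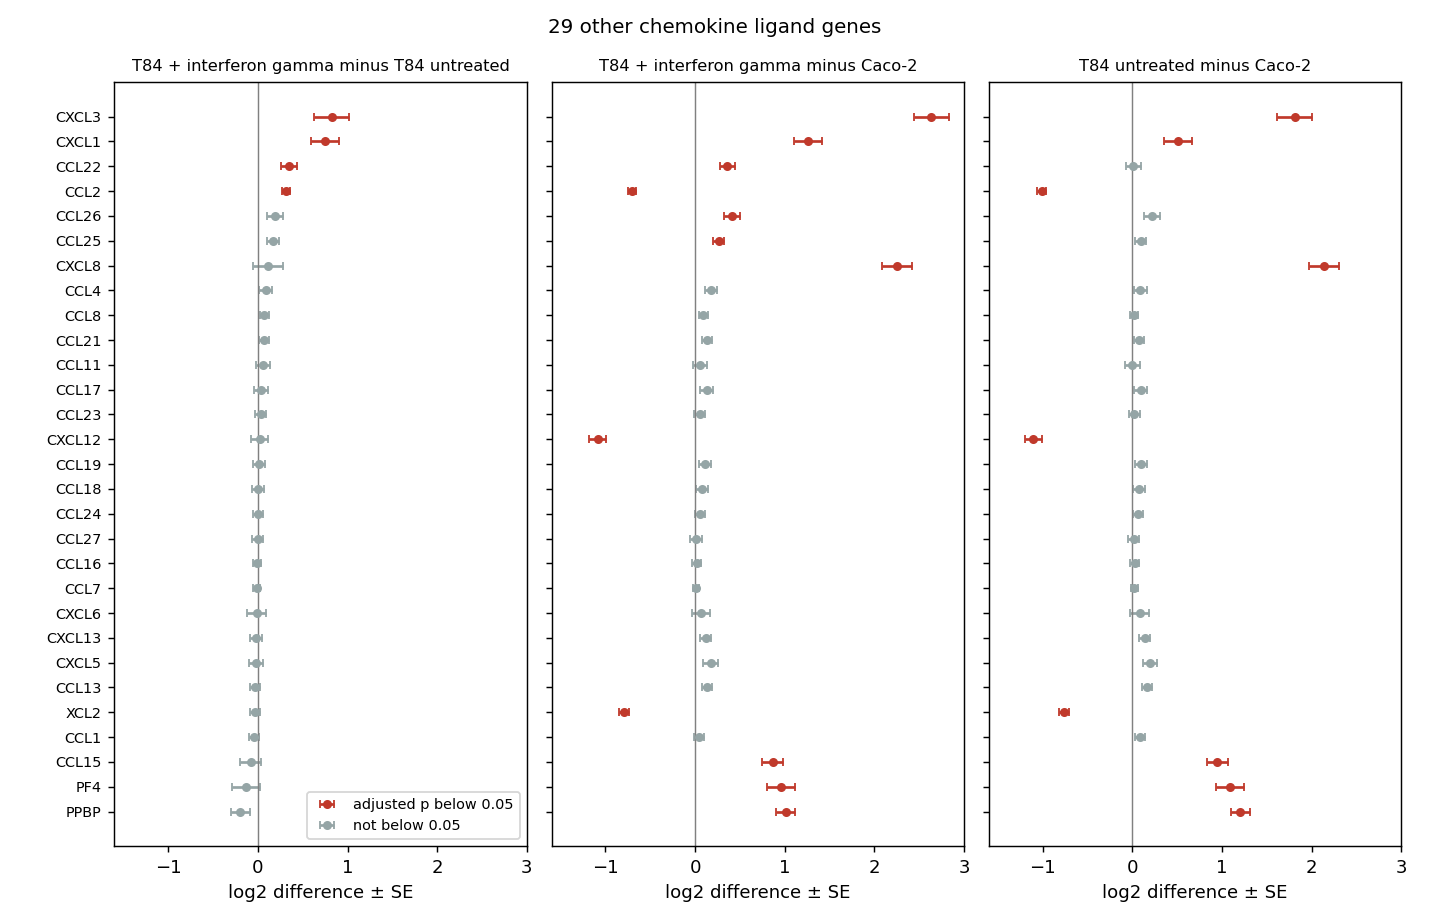
Log2 differences with standard errors for 29 chemokine ligand genes outside the 6, in treated against untreated T84 (left), treated T84 against Caco-2 (middle) and untreated T84 against Caco-2 (right); red marks an adjusted p below 0.05. In the left panel 4 genes are red, all to the right of 0, and the other 25 lie between -0.20 and 0.19.

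Against Caco-2, treated T84 had 9 of the 29 higher and 3 lower, and untreated T84 6 higher and 3 lower (limma, adjusted p below 0.05), to be read beside the 19.4 and 26.2% or 19.5 and 24.2% of all probe sets given above. The neutrophil attractant CXCL8 exceeded Caco-2 by 2.25 ± 0.16 log2 units (SE) in treated T84 and by 2.14 ± 0.16 in untreated T84, while treated and untreated T84 differed by 0.11 ± 0.16 (adjusted p = 0.828). These values are from an _x_at probe set. The CXCL8 probe set without a suffix for sharing gave 2.40 ± 0.19 in treated and 2.16 ± 0.19 in untreated T84 against Caco-2. Between treated and untreated T84 it gave 0.24 ± 0.19 (limma adjusted p = 0.615). CXCL3 exceeded Caco-2 by 2.63 ± 0.19 in treated and 1.81 ± 0.19 in untreated T84, and PPBP by 1.01 ± 0.10 in treated and 1.21 ± 0.10 in untreated T84. Lower in both were CXCL12, which acts through CXCR4 (-1.09 ± 0.09 and -1.11 ± 0.09), XCL2 (-0.80 ± 0.05 and -0.76 ± 0.05) and CCL2 (-0.70 ± 0.05 and -1.01 ± 0.05). Of the other CXCL12 probe sets, 1 gave -0.99 ± 0.10 in treated and -1.08 ± 0.10 in untreated T84, and the last gave -4.29 ± 0.15 and -4.31 ± 0.15, so the size of that difference depends on the probe set. The highest limma adjusted p among these calls was 0.0279 (CXCL1 in untreated T84, n = 3 per group). That CXCL1 call was lost without the 3 arrays that deviated together (adjusted p = 0.105), with a replicate block (0.0537), and without untreated T84 replicate 2 or 3 or Caco-2 replicate 1 or 3 (0.0584 to 0.0812). CCL25, higher in treated T84 by 0.26 ± 0.06 (limma adjusted p = 0.0089), was lost without the 3 arrays (0.0691).

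RefSeq places CXCL2 in a run of CXC chemokine genes on chromosome 4, in the order CXCL8, CXCL6, PF4V1, CXCL1, PF4, PPBP, CXCL5, CXCL3 and CXCL2. All of these but PF4V1 were measured, and beside CXCL2 only CXCL1 and CXCL3 passed between treated and untreated T84. CXCL5 and CXCL6 were dim on all arrays. PF4 and PPBP, the platelet factors of this family, had log2 differences of -0.13 ± 0.16 and -0.20 ± 0.10 (SE; limma adjusted p = 0.794 and 0.389, n = 3 per group). CX3CL1 lies between CCL22 and CCL17 on chromosome 16, where CCL22 passed and CCL17 had a difference of 0.03 ± 0.07. CCL4, next to CCL3 on chromosome 17, had one of 0.09 ± 0.07 at signals of 5.48 ± 0.12 in treated T84 and 5.39 ± 0.09 in untreated T84 (SD, n = 3 each).

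**Figure D4:**
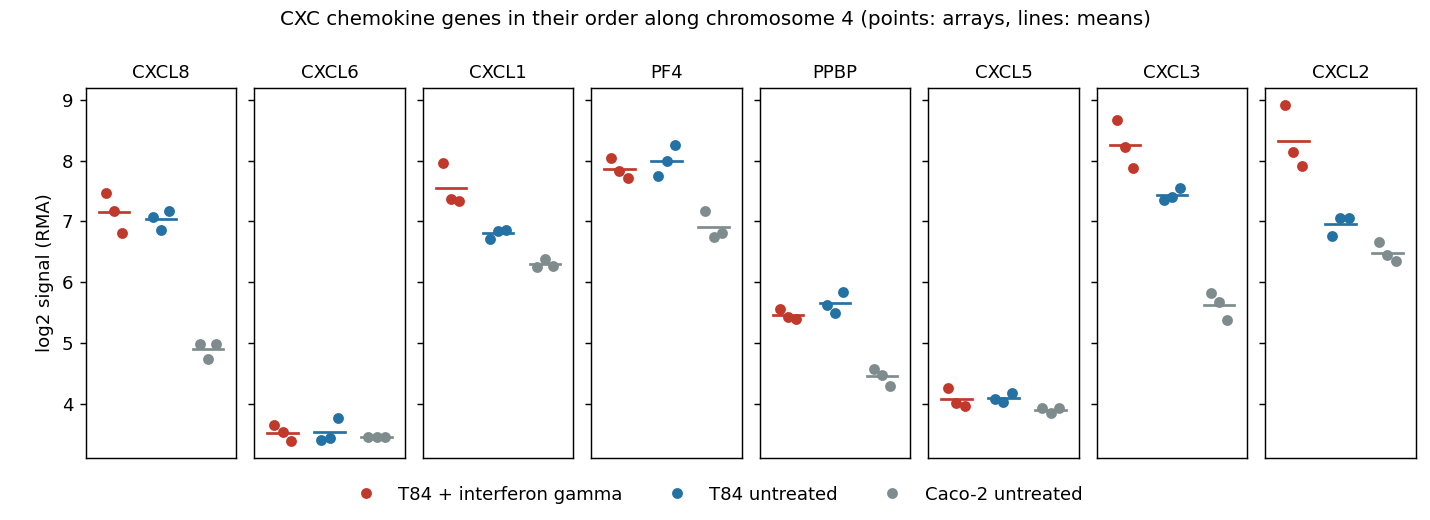
Log2 signal (vertical axis) of the 8 measured genes of the chromosome 4 run in genomic order, with treated T84, untreated T84 and Caco-2 cells from left to right in each panel (points are arrays, lines are means; CXCL2 by its _x_at probe set). CXCL1, CXCL3 and CXCL2 are higher on all treated than on all untreated T84 arrays, whereas CXCL8, PF4 and PPBP overlap between them and are higher in both than in Caco-2.

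Promoters from RefSeq (GRCh38.p14, 250 bases before the gene start) were found for 4 of the 6 genes, CCL3, CCL20, CXCL2 and CXCL14. CX3CL1 and CCL5 had no entry. They were searched on both strands for the gamma-activated site TTCNNNGAA, which 6.57% of 35116 promoters hold, the kappaB consensus (9.96%) and the interferon-stimulated response element core, GAAA, 2 bases, GAAA (3.02%). CXCL2 and CCL20, which lay on opposite sides in treated T84, each held a kappaB match, and CCL3 and CXCL14 held none of the 3. No member with a promoter matched the other 2 motifs. A match describes letters in this window, not a site in use. The 40 bases around the match are shown 5′ to 3′ in the direction of the gene for both genes, for CXCL1 and CXCL3, which rose with CXCL2, and for CCL22, the neighbour of CX3CL1, with the match in capitals. In CXCL2, CXCL1 and CXCL3 the match reads on both strands, shifted by 1 base. In CCL22 it also reads on both strands, at each of 2 positions 1 base apart, and in CCL20 on 1 strand.
CXCL2 (chr4:74099249-74099288, minus strand): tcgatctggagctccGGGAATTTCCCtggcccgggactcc
CXCL1 (chr4:73869299-73869338, plus strand): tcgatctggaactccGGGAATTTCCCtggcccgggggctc
CXCL3 (chr4:74038744-74038783, minus strand): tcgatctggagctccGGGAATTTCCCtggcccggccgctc
CCL20 (chr2:227813748-227813787, plus strand): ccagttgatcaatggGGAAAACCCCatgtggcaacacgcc
CCL22 (chr16:57358582-57358621, plus strand): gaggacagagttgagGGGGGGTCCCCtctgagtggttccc

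The CXCL2 window shared 35 of 40 bases with that of CXCL1 and 35 with that of CXCL3, against 16 with CCL20 and 15 with CCL22. The match began at position -78 from the start in CXCL2 and at -79 in CXCL1, CXCL3 and CCL20. Genes with a kappaB match at almost the same distance were found both among those that were higher and as the 1 that was lower in treated T84. CXCL5 and CXCL6, dim on these arrays, held such a match too, at -91 and -90. Of the 26 other chemokine ligand genes with a promoter, 6 held a kappaB match and 7 a gamma-activated site. The 7 did not pass between treated and untreated T84, though CXCL5, CXCL6, CCL7 and CCL8 among them were dim. Of the 6, CXCL1, CXCL3 and CCL22 passed. Among the CXCR3 ligands, CXCL10 and CXCL11 held a kappaB match, CXCL9 and CXCL10 the response element core, and CXCL11 a gamma-activated site. Whether any match acts in these cells was not tested.

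The receptors of these chemokines were mostly dim in both lines. Of 23 chemokine receptor genes 16 were measured, and 9 of them lay below the lower quartile on all 9 arrays, including CX3CR1, CCR6, CCR3 and CXCR2. In treated against untreated T84, 0 of 16 passed in limma, and 0 had an unadjusted p below 0.05. The receptor of fractalkine, CX3CR1, had log2 signals of 4.11 ± 0.03 in treated cells, 4.12 ± 0.03 in untreated T84 and 4.26 ± 0.03 in Caco-2 cells (SD, n = 3 each). CCR6, the receptor of CCL20, had 3.92 ± 0.05 in treated cells, 3.97 ± 0.01 in untreated T84 and 4.03 ± 0.07 in Caco-2 cells, read by a probe set that can cross-hybridise. Its probe set without a suffix for sharing had 3.39 ± 0.03, 3.39 ± 0.03 and 3.50 ± 0.05 in the same order. CCR9, the receptor of the gut chemokine CCL25, exceeded its Caco-2 level by 0.44 ± 0.06 log2 units (SE) in treated T84 and by 0.57 ± 0.06 in untreated T84 (limma adjusted p = 0.000323 and 7.94e-05, n = 3 per group). Its signals were low, at 5.81 ± 0.03 in treated cells, 5.93 ± 0.09 in untreated T84 and 5.36 ± 0.08 in Caco-2 cells (SD). The Caco-2 signal lay close to the lower quartile. Against Caco-2, treated T84 had 1 receptor higher and 3 lower and untreated T84 had 2 higher and 3 lower, beside 19.4 and 26.2% of all probe sets for treated and 19.5 and 24.2% for untreated T84. The lower ones were CCR7, CCR10 and CX3CR1, and their signs turned in treated T84 when arrays were centred on the mean of the ribosomal protein genes. On the median of those genes CX3CR1 turned (0.12), while CCR7 (-0.024) and CCR10 (-0.13) stayed negative. The CCR10 call was lost under both centrings, in treated T84 (limma adjusted p = 0.749 and 0.25) and in untreated T84 (0.218 and 0.0784). Without the 3 arrays that deviated together the CCR7 call was lost in treated and in untreated T84 (limma adjusted p = 0.104 and 0.0785), as was that of CX3CR1 (0.0675 and 0.072). Single arrays also ended the CCR7 call, in treated T84 without treated T84 replicate 3 or Caco-2 replicate 3 (0.0685 and 0.0521) and in untreated T84 without any untreated T84 array or Caco-2 replicate 3 (0.0606 to 0.0736). The CX3CR1 call was lost in treated T84 without treated T84 replicate 2 (0.0633) and in untreated T84 without untreated T84 replicate 1 or 2 (0.0639 and 0.0713) and with a replicate block (0.0508). CXCR2, the other receptor called higher in untreated T84 (0.16 ± 0.05, limma adjusted p = 0.0412), was lost without the 3 arrays (0.0866), with a replicate block (0.0768), and without any treated T84 array, untreated T84 replicate 1 or 2, or Caco-2 replicate 1 or 3 (0.0585 to 0.121). With only the 6 arrays compared, the calls of CCR7, CX3CR1 and CXCR2 in untreated T84 were lost (limma adjusted p = 0.0631, 0.0558 and 0.0938). So was that of CCR7 in treated T84 (0.0566). In untreated T84, array weights ended the calls of CCR7 (0.0817) and CXCR2 (0.0683). Median centring there ended those of CCR7 (0.071) and CX3CR1 (0.111), and quantile normalization those of CX3CR1 (0.0536) and CXCR2 (0.069).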

How the data were processed

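The authors deposited log2 signals for 1259 probe sets on 9 single-colour arrays, made with RMA per the submitters' processing notes. The sources used here do not give its version or the genome build. The values were used as deposited. RefSeq accessions without version gave a name to 1043 probe sets, which stand for 927 genes, and left 216 without one but in every test. Where several probe sets read a gene, the one brightest on average over the 9 arrays stood for it. Members kept all of theirs where their values are described. In counts of genes and in the profile distances CXCL2 was represented by its _x_at probe set alone.

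A linear model of group was fitted in limma 3.58.1 (R 4.3.3) to the 9 arrays together, with 6 residual and 2.12 prior degrees of freedom. P-values are two-sided and Benjamini-Hochberg adjusted over all 1259 probe sets, and 0.05 was the threshold. Errors of differences are the standard errors of this fit and errors of means are SDs. Tested on simulated data (1259 probe sets, 200 of them shifted, 20 rounds), the fit found 47.2, 82.2, 94.5 and 99.2% of shifts by 0.25, 0.5, 1 and 2 log2 units, and 4.31% of what it called had no shift. The simulated noise was normal, independent between probe sets and alike in the 3 groups. It left out deviations that arrays share. It also left out the wider spread in Caco-2 cells, with a median SD of 0.104 against 0.064 in treated and 0.071 in untreated T84. These rates therefore need not hold for the real arrays, and the number of arrays limits the precision.

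The members, the gene lists and the alternatives were chosen with earlier results of these data known. The text names every member, the 3 CXCR3 ligands, the 3 nearest profiles of each member, and, from the other lists, genes past the threshold. Other chemokine genes that adjoin a member and receptors of a member were named after their values were seen. Same-numbered arrays deviated from their group means with correlations from -0.643 to 0.561, so replicate numbers were not taken as pairs. The alternatives were other sets of arrays to fit, a replicate block, array weights, trended and robust moderation, scaling, the mean of the probe sets of a gene, a filter on dim probe sets, and single arrays. Centring on the median ribosomal protein gene and leaving out 3 arrays together were added after seeing the data. Figures were drawn with matplotlib 3.10.9 in Python 3.11.15.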

Additional observations from a re-analysis of the deposited data

How the results depend on the processing

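No called difference of the 6 chemokine genes changed sign under any alternative run, and of their recomputed values 371 stayed within 1 SD and 25 did not. With each array centred on the mean of 43 ribosomal protein genes, the median of all probe sets shifted to 0.13 in treated against untreated T84, 0.45 in treated T84 against Caco-2 and 0.31 in untreated T84 against Caco-2 (from -0.01, 0.02 and 0.02). That mean was itself lower in treated than in untreated T84, and lower in both than in Caco-2. Subtracting it raised every difference of a comparison by the same amount. Probe sets called higher then numbered 224, 903 and 836, those called lower against Caco-2 182 and 198, and other chemokine ligands called higher 8, 26 and 26. Higher calls made up 81.2, 83.2 and 80.9% of all calls, against 43.0, 42.5 and 44.6% as reported. Centring on the median of those genes, chosen after seeing the data, gave 43 lower calls in treated against untreated T84, 779 and 680 higher calls against Caco-2, 26 and 25 ligands called higher, and 55.7, 78.0 and 76.1% higher. Array weights gave 87 higher and 144 lower calls in treated against untreated T84, and 368 higher calls and 14 ligands higher in treated T84 against Caco-2. Leaving out 1 array at a time gave 45 to 70 higher and 40 to 108 lower calls in treated against untreated T84, and 1 to 4 other ligands higher with 0 lower each time. The count of 4 became 2 without treated T84 replicate 1 or 2, untreated T84 replicate 2 or Caco-2 replicate 2, and 1 without untreated T84 replicate 1 or 3. Of single genes, receptor differences from Caco-2 turned positive in 18 cases over both ribosomal centrings, where a difference that turned under both counts for each. Some had lain near 0, such as CCR3 in treated T84 (-0.0028). On the mean, treated T84 gave CCR3 0.42, CCR6 0.32, CCR7 0.14, CCR10 0.033, CXCR4 0.36, CXCR5 0.42, CXCR6 0.42 and CX3CR1 0.28, and untreated T84 gave CCR6 0.23, CCR7 0.0091, CXCR1 0.24, CXCR4 0.22 and CX3CR1 0.15. On the median, treated T84 gave CCR3 0.26, CXCR5 0.26, CXCR6 0.26 and CX3CR1 0.12, and untreated T84 gave CX3CR1 0.069. Why the ribosomal signals differed between the groups was not tested. A replicate block gave 50 higher and 59 lower calls and 3 ligands higher in treated against untreated T84. Signals below the lower quartile limit what could be seen for CXCL14 in T84, for 9 of 16 receptors and for 10 of the 29 other chemokine ligands.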
